A study of Mus musculus with 10 samples.

Results

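The AKT, FOXO and TSC genes were taken as the 9 genes of the count table whose symbols are *Akt1*, *Akt2*, *Foxo1*, *Foxo3*, *Foxo4*, *Pdpk1*, *Tsc1*, *Tsc2* and *Rheb*, out of 26146 genes listed. They were read in bulk RNA-seq of adult hematopoietic stem cells (HSCs), sorted from mouse bone marrow as LSKCD48-CD150+ cells. Each of the 10 libraries came from a different mouse, 5 of which carried *Cited2* fl/fl alleles with no Cre (*Cited2* CTL, wildtype in the labels) and 5 *Cited2* fl/fl;Vav-iCre (*Cited2* CKO, Cited2 KO in the labels). All mice were on the C57BL/6J background and 8 to 12 weeks old. *Cited2* encodes a transcriptional co-regulator that binds CBP and p300. Vav-iCre is active in all blood lineages from early in development, so the deletion was neither restricted to HSCs nor recent, and because the controls lacked Cre, loss of *Cited2* and presence of Cre cannot be told apart.

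As background, growth factors such as stem cell factor activate PI3K, whose lipid product brings AKT to the membrane, where the kinase PDK1, encoded by *Pdpk1*, phosphorylates it. AKT then phosphorylates the FOXO transcription factors, which leave the nucleus, and TSC2, which forms a complex with TSC1. That complex keeps the small GTPase RHEB in its inactive form, and active RHEB switches on the growth kinase complex mTORC1. In HSCs, FOXO factors and TSC1 are known for keeping the cells quiescent and their reactive oxygen low. All of these controls act on proteins, by phosphorylation and location, whereas the values here are mRNA levels.

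Promoter windows from RefSeq (GRCm38.p6), 250 bases before to 50 after a gene's start, were found for 8 of the 9 genes, and *Foxo4* had none. *Akt2* had 4 windows, and *Akt1* and *Pdpk1* had 2 each. For these, only the window nearest the annotated start of the gene was searched for motifs, so the other windows are not covered. The windows of *Akt2* and *Akt1* are shown because they form the pair of paralogs whose ratio is compared within libraries, and that of *Tsc2* because it had the next smallest p-value after *Akt2*. Each is written 5′ to 3′ on the strand of its gene, at chr7:27591302-27591601 (+), chr12:112674835-112675134 (-) and chr17:24632578-24632877 (-), and capitals mark the matched motifs.

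Akt2 promoter window: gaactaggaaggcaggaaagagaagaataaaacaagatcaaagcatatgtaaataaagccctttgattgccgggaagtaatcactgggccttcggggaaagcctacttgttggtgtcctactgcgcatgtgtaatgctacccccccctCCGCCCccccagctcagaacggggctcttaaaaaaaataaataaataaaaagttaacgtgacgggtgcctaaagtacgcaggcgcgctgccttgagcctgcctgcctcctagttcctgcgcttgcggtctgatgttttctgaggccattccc

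Akt1 promoter window: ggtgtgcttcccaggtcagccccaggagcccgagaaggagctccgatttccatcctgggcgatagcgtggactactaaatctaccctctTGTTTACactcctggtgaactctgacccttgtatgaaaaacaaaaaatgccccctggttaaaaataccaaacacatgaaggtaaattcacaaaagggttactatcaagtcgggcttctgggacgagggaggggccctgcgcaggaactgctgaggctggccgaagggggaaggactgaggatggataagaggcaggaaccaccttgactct

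Tsc2 promoter window: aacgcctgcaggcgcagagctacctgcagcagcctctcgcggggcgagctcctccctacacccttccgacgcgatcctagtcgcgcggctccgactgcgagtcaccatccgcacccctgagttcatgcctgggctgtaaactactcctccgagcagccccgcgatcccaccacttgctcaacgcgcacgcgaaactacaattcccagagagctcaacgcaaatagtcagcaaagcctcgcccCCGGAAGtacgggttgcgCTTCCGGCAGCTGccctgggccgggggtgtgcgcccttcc

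Positions were counted from 1 at the 5′ end of the window. The *Akt2* window held 1 GC box (GGGCGG on either strand) at position 149, a match found in 35.7% of all 32851 windows. The *Akt1* window held 1 match to the FOXO motif GTAAACA at position 90, found in 3.65% of windows. *Tsc2* had 2 matches to the ETS motif CCGGAAG, at positions 243 and 261, found in 8.86% of windows, and the second ran directly into an E-box (CAGCTG, searched together with CAGGTG) at position 268, found in 32.9%. Of the windows not shown, those of *Foxo1* and *Foxo3* held 5 GC boxes each, and that of *Rheb* held the palindromic E-box CACGTG at position 155, found in 7.15% of windows, and a GC box at position 198. No match to these motifs, to AGGCCT (in 10.3% of windows) or to TTCCNGGAA (in 1.15%) lay in the windows of *Pdpk1* and *Tsc1*. The start on which the *Rheb* window was placed lay 263 bases from the annotated start of the gene, and that window lay wholly downstream of the annotated start. For *Foxo3* the distance was 60 bases. A match is a string of letters in the window and says nothing of binding.

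The libraries held 3058690 to 4548795 counts in the CTL group and 3500215 to 4315029 in the CKO group. *Cited2* itself stood at 101, 171, 162, 222 and 160.2 CPM (counts scaled to library size) in CTL 1 to CTL 5, and at 3.80, 4.21, 120.1, 5.00 and 8.30 CPM in CKO 1 to CKO 5. The library labelled CKO 3 kept *Cited2* within the CTL range. It is used here under its label, and values without it are given for the 8 tested genes and for some of the other results. All 12 HSC markers were detected in every library, led by *Kit* at a mean of 540.1 CPM, with sums of 2618 to 2941 CPM in CTL and 2364 to 2673 CPM in CKO. CKO 3 gave the lowest of these sums.

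The levels of the 9 genes per length, as CPM per 1000 bases of the length given in the table (RPKM), covered a wide range. In CTL, *Rheb* was highest at a mean of 76.7 RPKM, followed by *Akt2* at 35.5 and *Akt1* at 35.3 RPKM. *Tsc2* (13.4), *Pdpk1* (12.9), *Tsc1* (10.6), *Foxo1* (10.2) and *Foxo3* (6.84 RPKM) came next, and *Foxo4* was at 0.579 RPKM. Among neighbours in this order, the library ranges were apart for *Rheb* and *Akt2*, for *Akt1* and *Tsc2*, and for *Foxo3* and *Foxo4*, and overlapped for the rest. In CKO, *Akt1* (33.5 RPKM) stood above *Akt2* (26.5 RPKM), and *Pdpk1* (13.7 RPKM) above *Tsc2* (10.6 RPKM), with *Rheb* still first at 82.5 and *Foxo4* last at 0.752 RPKM.

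**Figure D1:**
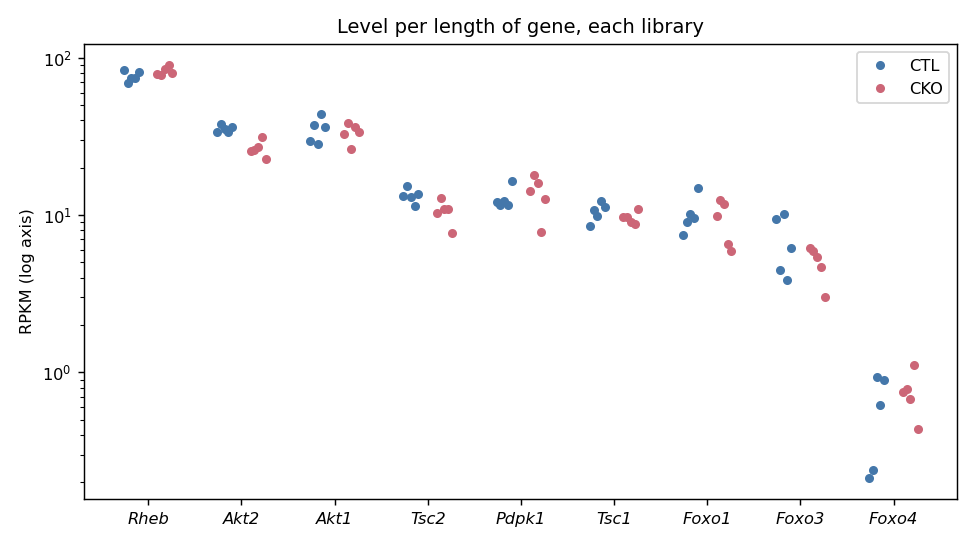
Level of the 9 genes in RPKM (CPM per 1000 bases of deposited length) on a log axis, with 1 point per library, CTL and CKO side by side. *Rheb* lies highest and *Foxo4* lowest in both groups, and the CKO points of *Akt2* lie below its CTL points.

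The length in the table sets these levels. It covered 39% of the annotated exon bases of *Foxo3*, 64.1% of those of *Foxo1* and 67.1% of those of *Akt2*, against 100% for *Akt1*. On the annotated lengths the CTL means were 35.3 RPKM for *Akt1*, 23.9 for *Akt2*, 6.55 for *Foxo1*, 2.67 for *Foxo3* and 65.4 for *Rheb*. *Akt1* then stood above *Akt2* in CTL as well. The counts were the same in both cases, and whether they include reads from the bases outside the deposited length is not known. If they do not, the annotated lengths give levels that are too low for *Akt2*, *Foxo1* and *Foxo3*. The comparisons between genotypes below do not use length, except those with a correction for GC content and length. That correction used the lengths given in the table.

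None of the 8 genes that passed the filter on low counts was called different between genotypes by edgeR's quasi-likelihood test, which calls a gene at an adjusted p under 0.05 and a fold change above 20%. Over all 14165 genes tested, 0.226% were called. The deleted gene, *Cited2*, was not called either with CKO 3 included (log2 fold change -2.51, SE 0.94, adjusted p 0.328, edgeR). A gene left uncalled by this test is therefore not shown to be unchanged. At an unadjusted p under 0.05, 2 of the 8 were lower in CKO, where 7.08% of all genes were, and 0 were higher, where 5.80% were. In 1 of the 8, *Akt2*, every CKO library lay below every CTL library, against 1.98% of all genes, and in 0 every CKO library lay above, against 1.35%. The median log2 fold change of the 8 was -0.13, against 0.01 over all genes. Without CKO 3, 0 of the 8 were called, where 42 of all genes were, and the median was -0.17. *Akt1* was then at -0.01, *Foxo1* at -0.24, *Foxo3* at -0.46 and *Pdpk1* at 0.03. *Tsc1* was at -0.11, *Tsc2* at -0.36 and *Rheb* at 0.10. With DESeq2's Wald test, which the study used, 2.55% of genes were called and 1 of these genes, *Akt2*, was among them. Fewer cells of a type and less RNA per cell cannot be told apart in bulk RNA.

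**Figure D2:**
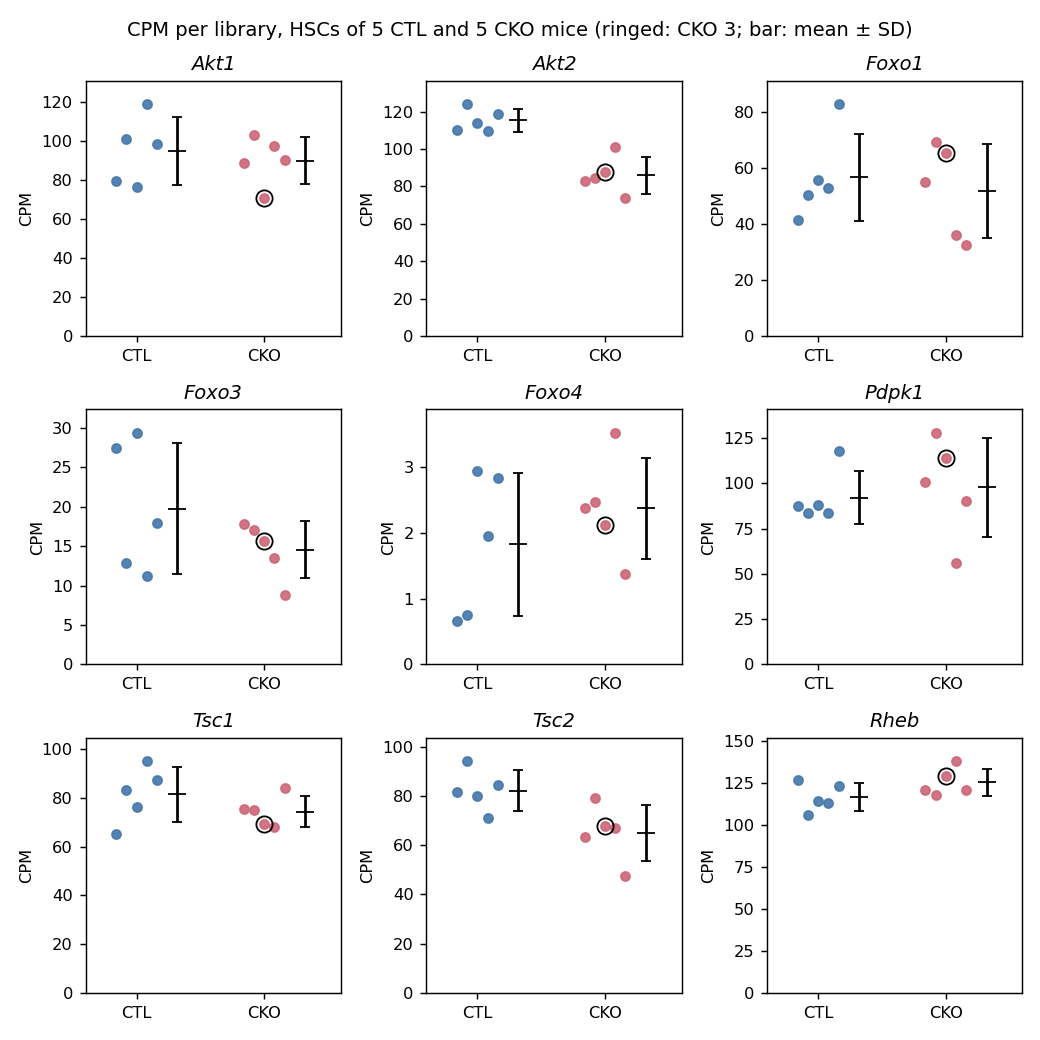
CPM of the 9 genes in each library, with 1 panel per gene, CTL and CKO side by side, CKO 3 ringed, the mean ± SD of each group (n = 5), and the axis of each panel starting at 0. *Akt2* is the panel in which all 5 CKO libraries, at 74.0 to 101 CPM, lie below all 5 CTL libraries, at 109.9 to 124 CPM.

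The AKT isoforms are serine/threonine kinases that pass PI3K signals on to FOXO, TSC2 and many other substrates. *Akt2* (chr7:27591552-27640826, + strand, GRCm38), the isoform best known for insulin-driven glucose uptake, measured 110.0, 124, 114, 109.9 and 119 CPM in CTL 1 to CTL 5 and 82.7, 84.4, 87.5, 101 and 74.0 CPM in CKO 1 to CKO 5. All 5 CKO libraries, CKO 3 included, lay below all CTL libraries. The mean was 115 ± 5.86 CPM in CTL and 85.9 ± 9.86 CPM in CKO (SD, n = 5 each), or 74.6% of the CTL mean. The log2 fold change was -0.42 (SE 0.09, 95% CI -0.62 to -0.23), with an adjusted p of 0.0783 in edgeR's quasi-likelihood test, so *Akt2* was not called. It ranked 80 of all tested genes by p-value. DESeq2 gave an adjusted p of 0.00392, which is past the threshold, and without CKO 4 edgeR gave a log2 fold change of -0.49 and an adjusted p of 0.0479, also past it. Without CKO 3, the log2 fold change was -0.43 with an adjusted p of 0.104, and with a correction for GC content and length it was -0.25 (95% CI -0.45 to -0.05), with an adjusted p of 0.617 in edgeR.

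*Akt1* (chr12:112653821-112674884, - strand), the isoform tied to growth and survival, measured 79.6, 101, 76.7, 119 and 98.5 CPM in CTL and 88.9, 103, 70.9, 97.3 and 90.3 CPM in CKO. The groups overlapped throughout. The means were 95.1 ± 17.4 and 90.1 ± 12.1 CPM, and the log2 fold change was -0.08 (95% CI -0.37 to 0.21; adjusted p 0.842, edgeR). With the correction for GC content and length it had the opposite sign, 0.18 (95% CI -0.13 to 0.49). *Pdpk1* (chr17:24073680-24150924, - strand), the kinase upstream of AKT, measured 87.3, 83.4, 87.9, 83.4 and 118 CPM in CTL and 101, 128, 114, 56.1 and 90.1 CPM in CKO. CTL 5 was the highest CTL library and CKO 4 the lowest of all. Its log2 fold change was 0.09 (95% CI -0.29 to 0.48; adjusted p 0.870, edgeR), and -0.08 with the correction for GC content and length.

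The FOXO factors switch on genes of cell cycle arrest, antioxidant defence and autophagy when AKT is inactive. *Foxo1* (chr3:52268336-52353221, + strand) measured 41.5, 50.5, 55.9, 52.9 and 82.9 CPM in CTL and 55.1, 69.5, 65.5, 36.2 and 32.7 CPM in CKO. CTL 5 was the highest of all 10 libraries, and CKO 4 and CKO 5 were the lowest. The log2 fold change was -0.13 (95% CI -0.63 to 0.36; adjusted p 0.850, edgeR). *Foxo3* (chr10:42181841-42276755, - strand), the FOXO gene most tied to HSC maintenance, measured 27.4, 12.9, 29.4, 11.2 and 17.9 CPM in CTL and 17.8, 17.1, 15.6, 13.5 and 8.76 CPM in CKO, from 38 to 100 counts. The CTL libraries spread with a coefficient of variation of 42.0%, where counting alone would give 11.8%. The log2 fold change was -0.43 (SE 0.30, 95% CI -1.09 to 0.22) with an adjusted p of 0.598 in edgeR. The fold change was as large as that of *Akt2*, but its interval was wider and included 0.

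*Foxo4* (chrX:101254528-101260873, + strand) did not pass the filter on low counts and was not tested by edgeR. It measured 0.669, 0.758, 2.94, 1.95 and 2.84 CPM in CTL and 2.38, 2.47, 2.13, 3.53 and 1.38 CPM in CKO, from 2 to 13 counts per library. Each library's value therefore rests on few counts, and the groups overlapped. With the filter left out, the log2 fold change was 0.34 (95% CI -1.22 to 1.92) with an adjusted p of 0.927 in edgeR.

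TSC1 and TSC2 are the scaffold and the catalytic subunit of the complex that inactivates RHEB. *Tsc2* (chr17:24595816-24632630, - strand) measured 81.6, 94.2, 80.0, 70.9 and 84.5 CPM in CTL and 63.2, 79.4, 67.8, 67.0 and 47.5 CPM in CKO. CKO 2 was inside the CTL range and the other 4 CKO libraries were below it. The means were 82.2 ± 8.4 and 65.0 ± 11.5 CPM, the log2 fold change was -0.34 (SE 0.13, 95% CI -0.62 to -0.06), and the p-value was 0.0217 with an adjusted p of 0.309 in edgeR. With the correction for GC content and length, the interval was -0.53 to 0.04. The exons of *Tsc2* overlap those of *Pkd1*, on the opposite strand, by 693 bases, and the sources used here do not say whether the counting used strand. *Pkd1* measured 171 ± 17.1 CPM in CTL and 126 ± 22.0 CPM in CKO, with a log2 fold change of -0.44 and an adjusted p of 0.136 in edgeR. Its part in the *Tsc2* value was not tested.

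*Tsc1* (chr2:28641228-28691167, + strand) measured 65.2, 83.1, 76.4, 95.1 and 87.3 CPM in CTL and 75.3, 75.0, 69.3, 67.9 and 83.9 CPM in CKO. All CKO values lay inside the CTL range. The log2 fold change was -0.13 (95% CI -0.38 to 0.11; adjusted p 0.664, edgeR). *Rheb* (chr5:24802823-24842624, - strand), the GTPase that the TSC complex holds inactive, measured 127, 106, 114, 113 and 123 CPM in CTL and 121, 118, 129, 138 and 121 CPM in CKO. It had the smallest standard error of the 8 tested genes, with a log2 fold change of 0.11 (SE 0.08, 95% CI -0.07 to 0.28; adjusted p 0.629, edgeR). With the correction for GC content and length, the log2 fold change of *Rheb* was 0.01.

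**Figure D3:**
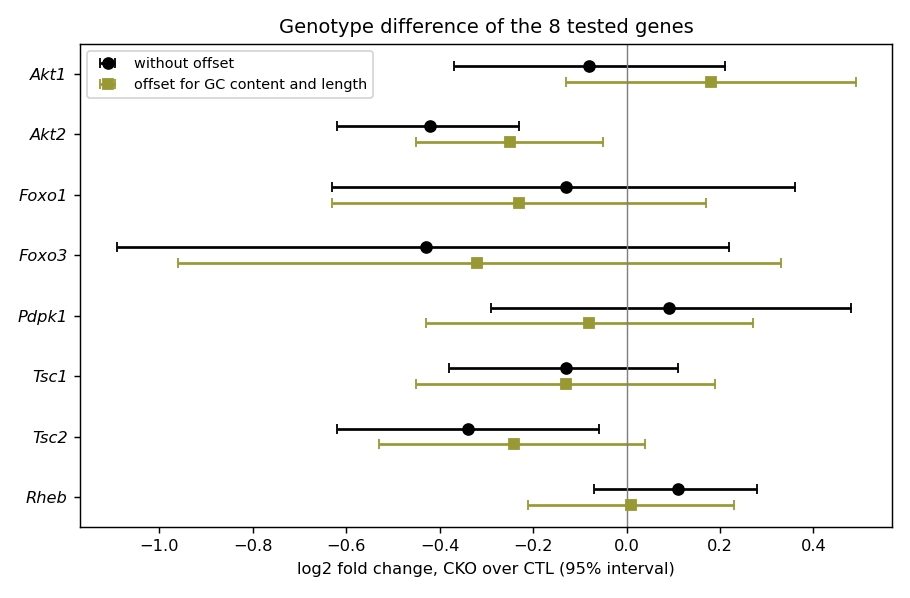
Log2 fold change, CKO over CTL, of the tested genes with 95% confidence intervals, without and with the correction for GC content and length. The intervals of *Akt2* and *Tsc2* lie below 0 without the correction, and that of *Akt2* also with it, at -0.45 to -0.05.

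The ratio of paralogs or partners within a library does not depend on its total. The log2 ratio of *Akt2* to *Akt1* per length was 0.20, 0.02, 0.30, -0.39 and -0.00 in CTL and -0.37, -0.56, 0.03, -0.21 and -0.56 in CKO. The groups overlapped, with CTL 4 the lowest of the CTL libraries and CKO 3 the highest of the CKO libraries. The mean was 0.03 ± 0.26 in CTL and -0.33 ± 0.25 in CKO, a difference of -0.36. All exact permutations of the libraries gave a two-sided p of 0.0873, or 0.262 adjusted over the 3 ratios tested. Without CKO 3 the difference was -0.45 with p = 0.0476, and without CTL 4 -0.46 with p = 0.0476, both by the exact permutation test and unadjusted. With any other single library left out, the unadjusted p of the same test was 0.111 to 0.175. The smallest p that 5 libraries against 5 allow is 0.00794. *Foxo1* to *Foxo3* had a mean log2 ratio of 0.65 ± 0.77 in CTL and 0.87 ± 0.28 in CKO (exact permutation p = 0.556, 0.556 adjusted). For *Tsc2* to *Tsc1* the means were 0.34 ± 0.28 and 0.12 ± 0.36 (exact permutation p = 0.325, 0.488 adjusted).

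**Figure D4:**
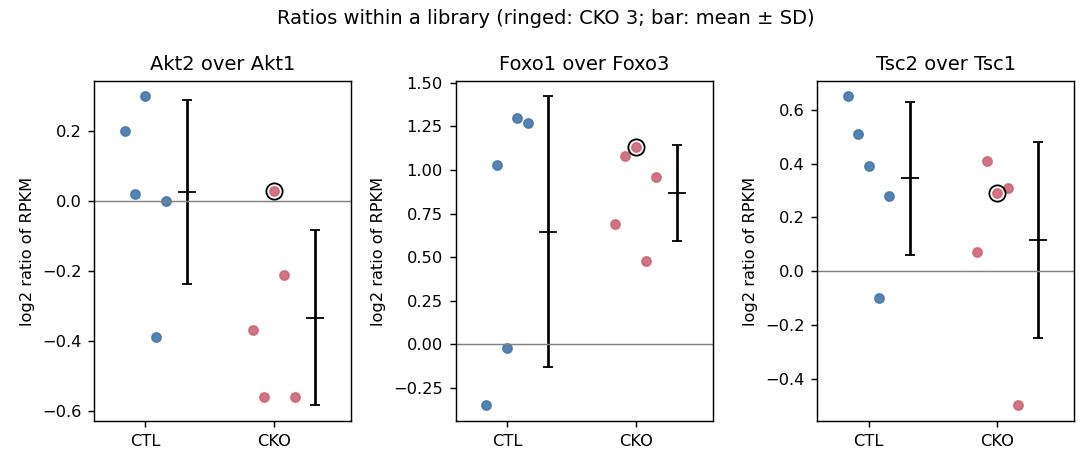
Log2 ratio per length of *Akt2* to *Akt1*, *Foxo1* to *Foxo3* and *Tsc2* to *Tsc1* within each library, with 1 point per library, CKO 3 ringed, and the mean ± SD of each group (n = 5). The *Akt2* to *Akt1* means are 0.03 in CTL and -0.33 in CKO, and the points overlap, with CTL 4 lowest in CTL and CKO 3 highest in CKO.

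The rest of the pathway was read from 10 lists of 194 different genes, 183 of which were tested. By edgeR, 1 was called, where 0.226% of all genes were. In 5 (2.73%), every CKO library lay below every CTL library, against 1.98% of all genes. In 2, every CKO library lay above, against 1.35% of all genes. At an unadjusted p under 0.05, 15 (8.20%) were higher and 18 (9.84%) lower in CKO, against 5.80% and 7.08% of all genes, and the median log2 fold change was -0.00, against 0.01 over all genes. With the correction for GC content and length, 0 were called, 4 were higher and 9 lower at an unadjusted p under 0.05. Without CKO 3, 1 was called, and 13 were higher and 13 lower. Over all genes, 8 were called with the correction and 42 without CKO 3. The share of all genes at an unadjusted p under 0.05 was not worked out for these settings. Counts under them, here and in the lists below, therefore have no background, and a change from the main test is not particular to a list.

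Of the 33 tested FOXO target genes, 3 were higher and 3 lower at an unadjusted p under 0.05, with a median of 0.01. *Pink1*, a kinase of mitochondrial quality control, went from 179 ± 18.3 to 127 ± 12.8 CPM with no overlap between groups (log2 fold change -0.49, adjusted p 0.0533, edgeR). With the correction for GC content and length, its log2 fold change was -0.25, with an adjusted p of 0.701 in edgeR. *Klf6* (0.38) and the mitochondrial peroxidase gene *Prdx3* (0.16) had positive log2 fold changes that were not called. For *Prdx3* the groups did not overlap. Among 25 tested modifiers and partners of FOXO, 3 were higher and 1 lower, including *Stk3* (0.24), *Mapk8* (0.40) and *Mdm2* (-0.22), with a median of 0.09 and none called. With the correction for GC content and length, the FOXO targets gave 1 higher and 2 lower, and the modifiers and partners 0 higher and 1 lower. Without CKO 3, the FOXO targets gave 4 higher and 4 lower with a median of -0.06. The modifiers and partners then gave 4 higher and 0 lower.

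Upstream of AKT, 1 of the 19 tested PI3K subunits and adaptors was higher and 1 lower at an unadjusted p under 0.05, and their median was -0.04. *Pik3cb*, a catalytic subunit, went from 8.63 to 16.5 CPM (log2 fold change 0.94, adjusted p 0.276, edgeR), and *Pik3r2*, a regulatory subunit, from 36.1 to 23.8 CPM with no overlap (-0.60, adjusted p 0.130). The 16 antagonists of PI3K and AKT gave 1 higher, the phosphatase subunit gene *Ppp2ca* (0.32), and 1 lower, the pseudokinase gene *Trib3* (-0.79), with a median of -0.05. Of 14 tested AKT-related kinases and partners, 0 were higher and 1 was lower, the endosomal adaptor gene *Appl2* (-0.42, adjusted p 0.142, edgeR), with a median of 0.00. Among 16 AKT substrates other than FOXO and TSC2, 3 were higher and 2 lower, with a median of -0.11, and the named examples were *Pfkfb2* (0.37), *Wnk1* (0.34), *Mdm2* (-0.22) and *Acly* (-0.26). With the correction for GC content and length, 0 of these substrates were higher and 1 was lower. With it, the PI3K subunits and adaptors and the antagonists each gave 1 higher and 0 lower, and *Pik3r2* was at -0.31.

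The mTOR list, of complex subunits and genes related to mTOR, RHEB or TSC, had 13 tested genes. Of these, 3 were lower at an unadjusted p under 0.05 and 0 were higher, with a median of -0.12. *Telo2*, which stabilises mTOR and related kinases, went from 75.9 ± 6.79 to 52.4 ± 7.66 CPM (log2 fold change -0.53, adjusted p 0.0909, edgeR), and *Mtor* itself from 64.6 ± 5.15 to 51.7 ± 5.15 CPM (-0.32, adjusted p 0.255). In both, 2 of the 13 (15.4%), the groups did not overlap, against 1.98% of all genes with every CKO library lower. The 17 genes listed as mTORC1 substrates, not all of them direct, had a median of -0.21. Of these, 6 (35.3%) were lower and 2 higher, against 7.08% and 5.80% of all genes. They included *Ulk1*, the autophagy kinase also counted with the FOXO targets, at -0.51 (adjusted p 0.158, edgeR), *Lpin1* at -0.41 and, on the higher side, *Rps6kb1* at 0.22 and *Pdcd4* at 0.27. Without CKO 3, and likewise with the correction for GC content and length, 3 were lower, and none was called. The mTOR list then gave 2 lower in either case. Among the 27 tested Rag GTPase and amino acid sensing genes, 2 were lower, *Flcn* (-0.29) and *Nprl2* (-0.29, with no overlap), and 1 was higher, *Rraga* (0.20), with a median of -0.01. With the correction for GC content and length, 0 were lower and 0 higher. Of the 13 tested LKB1 and AMPK genes, 1 was higher, the AMPK subunit gene *Prkab1* (0.26), and 0 were lower, with a median of 0.01.

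**Figure D5:**
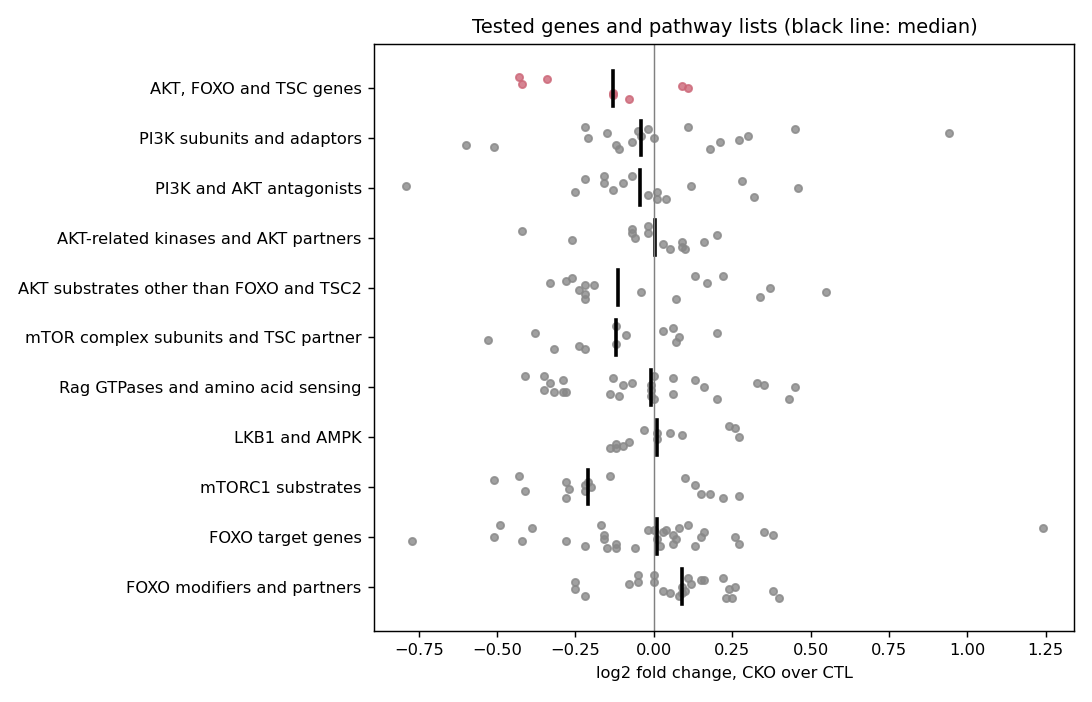
Log2 fold change, CKO over CTL, of each of the 8 tested AKT, FOXO and TSC genes (top) and of each tested gene in the 10 pathway lists, with 1 point per gene and a black line at each median. The list medians lie between -0.21 for the genes listed as mTORC1 substrates and 0.09 for the FOXO modifiers.

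Markers of other cells were read in the same libraries. The 5 mast cell and basophil markers, led by *Cpa3*, summed to 36.8 to 62.3 CPM in CTL and 73.5 to 146 CPM in CKO, with no overlap between groups, and 1 of the 5 was detected in every library. The 9 lymphocyte markers summed to 113 to 161 CPM in CTL and 141 to 193 CPM in CKO, and 2 were detected in every library. Of the 7 multipotent progenitor markers, 1 was called, *Cd48*, the surface protein whose absence was used to sort the cells. It rose in CKO, where it measured 38.5 to 60.8 CPM against 14.4 to 27.4 CPM in CTL, with no overlap and CKO 3 lowest of the CKO libraries (log2 fold change 1.18, SE 0.20, adjusted p 0.0264, edgeR). The call was lost with the correction for GC content and length, at 1.05 with an adjusted p of 0.174. At an unadjusted p under 0.05, 2 of the 7 were higher and 1 was lower, with a median log2 fold change of 0.27, or 0.08 without CKO 3. The sums of these 7 markers, led by *Cd34* (558 to 692 against 572 to 679 CPM), the 7 megakaryocyte and platelet markers (547 to 671 against 538 to 678), the 7 erythroid markers found in the table (130.2 to 204 against 153 to 186) and the 9 granulocyte and monocyte markers (302 to 646 against 317 to 502) overlapped. *Ly6g*, the granulocyte marker, was at 0 in every library. The part of these markers in the values of *Akt2* and *Tsc2* was not tested.

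The genes whose log2 CPM was most like that of each gene over the 10 libraries were sought among 9532 genes with a mean of at least 20 CPM. For *Akt2* they were 2810468N07Rik (Pearson r 0.98), *Nsmf* (0.96) and *Sun1* (0.96). The closest was *Ankrd13a* for *Akt1* (0.95), *Elf2* for *Foxo1* (0.94), *Melk* for *Foxo3* (0.91) and *Thap12* for *Pdpk1* (0.93). For *Tsc1* it was *P3h3* (0.95), for *Tsc2* *Tbc1d14* (0.90) and for *Rheb* *Ergic2* (0.88). These coefficients are the highest of many and describe 10 libraries that share genotype and depth, so they carry no test. The log2 fold changes of the *Akt2* neighbours were -0.69, -0.44 and -0.50 in the same order, and none was called.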

How the data were processed

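Bulk RNA-seq of sorted LSKCD48-CD150+ HSCs was analysed for 5 CTL mice and 5 CKO mice. The authors deposited counts per gene with a gene length, from reads aligned with HISAT2 to mm10 per the labels and counted with Rsubread per the study's methods, and the annotation and strand setting are not given in the sources used here. The main test was that of edgeR 4.0.16, run in R 4.3.3 (filterByExpr, TMM, robust quasi-likelihood F test, Benjamini-Hochberg adjustment over 14165 genes), and CPM used TMM library sizes. A gene was called at an adjusted p under 0.05 and a fold change above 20%. Total counts ran from 3058690 to 4548795 per library, and the biological coefficient of variation was 25.3%. RPKM is CPM per 1000 bases of deposited length. Ratios were tested with all 252 exact permutations.

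Alternatives were DESeq2 1.42.0 (Wald test, the study's test, and size factors), limma 3.58.1 (voom), no filter, at least 10 counts in every library, a loess offset for GC content and length, a replicate block, 1 surrogate variable (sva 3.50.0), *Xist* as a covariate, and each library left out. GC content, exon lengths and positions came from GENCODE M21 (GRCm38). The scripts were tested on simulated data. The genes and lists were chosen with earlier results of these data known. Named are the 9 genes, *Cited2*, called list genes, up to 2 list genes per direction with the smallest p-value, the leading cell markers and the most similar genes. List genes with an unadjusted p of 0.05 or more were left out, a choice made after the values were seen, as was naming *Pkd1* and *Cd48*. Some genes that this rule would name are not reported here.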

Additional observations from a re-analysis of the deposited data

Results flagged for a closer look

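The CTL libraries of *Pdpk1* held a value far from the others. CTL 5 measured 118 CPM against 83.4 to 87.9 CPM in the other 4 CTL libraries, and its gap to the nearest of them was 0.869 of the whole range, above Dixon's critical value of 0.71 for 5 samples. It was the only value beyond this limit among 24 groups examined, where chance gives about 5.0% of groups.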

How the results depend on the processing

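Of 236 values under alternatives, 151 of single genes and 60 of counts and ratios kept their direction and side of the threshold, or for a count came within 1.5 times. The number of genes called, 32 by edgeR, was 341 by DESeq2, 8 with the GC and length offset, 12 with the offset and replicate block together, and 8 to 42 with 1 library left out. Of the 9 genes, 1 was called by DESeq2 and 0 to 1 with 1 library left out, the 1 being *Akt2* without CKO 4. The sign reversed for *Akt1* (0.18 with the offset, 0.19 with offset and block, and up to 0.01 without CTL 4, from -0.15), *Pdpk1* (-0.08, -0.09, and -0.02 without CKO 2, up to 0.23), *Foxo1* (0.04 without CTL 5, from -0.27) and the *Foxo1* to *Foxo3* ratio (-0.03 to 0.38 with 1 library left out, negative without CTL 1). The *Akt2* to *Akt1* ratio difference was -0.45 with the offset (exact permutation p = 0.0397) and -0.46 to -0.29 with 1 library left out. The cause of these shifts was not tested. The replicate numbers did not pair the libraries (correlations of -0.09 to 0.21, with 1 of 5 pairs closest to its own number). With the replicate block, 24 genes and 0 of the 9 were called, *Akt2* was at -0.43 on the log2 scale with an adjusted p of 0.175 in edgeR, and the ratio differences were -0.36, 0.22 and -0.23. Of the 9 genes, *Foxo4* and *Foxo3* had the fewest counts, and intervals cover these libraries only.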
